A study of Mus musculus with 2 samples.

Results

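Among 2537 PPARγ peaks mapped in mouse TH2 cells, 329 (12.97%) were distal peaks with a DR1 element. DR1 is the site that PPARγ occupies together with a retinoid X receptor: a direct repeat of the hexamer AGGTCA with 1 bp between the copies. The 329 peaks met 4 conditions. The peak centre lay within 100 kb of a protein-coding transcription start site (TSS). It lay in no promoter, a stretch from 1000 bp before to 100 bp after any annotated TSS, and it was not soft-masked as repeat. The 200 bp around it held AGGTCANAGGTCA, where N is any base, on either strand with at most 2 mismatches in the 12 fixed bases. The 3 conditions on location left 1608 peaks, of which the other 1279 had no such match and served as the comparison. No tag count or other measured value entered the choice.

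The peaks came from 1 ChIP library with no replicate. The starting cells, naive CD4+ T cells from C57BL/6J mice, were activated and cultured under TH2 conditions. A retrovirus brought in TY1-tagged Pparg on days 1 and 2, and cells were harvested on day 4. The ChIP used an antibody to the tag, and 1 input library of the same transduced cells, made without antibody, served the authors as background. The map therefore describes an introduced, tagged receptor, and both libraries carry it; cells without the retrovirus were not analysed here. The library held 10229438 tags, of which 54617 (0.53%) lay in peaks. Each peak is 173 bp long and has no strength of its own in the file, so every peak counted once, and the identity of the cells cannot be checked against marker genes.

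PPARγ belongs to the nuclear receptors that lipid ligands activate. It is best known for driving fat cell differentiation and for switching on genes of fatty acid storage and oxidation. On a DR1, PPARγ is known to sit on the 5′ hexamer and the retinoid X receptor on the 3′ hexamer, and PPARγ also touches bases just upstream of the repeat. In T cells the receptor is known for its part in TH2 cytokine responses and in the fat content of regulatory T cells in adipose tissue.

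The elements without mismatch are shown first, since they give the consensus in its natural context. There were 16 such peaks among the 329, and 8 of them are printed here with 9 bases on each side, all 5′ to 3′ on the strand of the element, from the mm10 genome. Capitals mark the 13 bases of the DR1.
Hif1a, DR1 at chr12:73905200-73905212, plus strand: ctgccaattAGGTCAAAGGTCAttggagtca
Tiparp, DR1 at chr3:65516054-65516066, minus strand: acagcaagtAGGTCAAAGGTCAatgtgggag
Parva, DR1 at chr7:112502303-112502315, plus strand: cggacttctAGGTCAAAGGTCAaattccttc
Ch25h, DR1 at chr19:34458256-34458268, plus strand: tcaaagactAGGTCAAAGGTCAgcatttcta
Socs2, DR1 at chr10:95442592-95442604, plus strand: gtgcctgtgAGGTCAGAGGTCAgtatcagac
Socs1, DR1 at chr16:10701961-10701973, plus strand: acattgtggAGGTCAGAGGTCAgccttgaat
Pex5, DR1 at chr6:124424167-124424179, plus strand: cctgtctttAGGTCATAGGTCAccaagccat
Odf1, DR1 at chr15:38197600-38197612, minus strand: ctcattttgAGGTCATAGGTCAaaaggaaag
The spacer was A in 7 of the 16, G in 7 and T in 2. Hif1a encodes the oxygen-sensitive subunit of HIF-1, Tiparp an ADP-ribosyltransferase, Parva an adaptor of integrin adhesions and Ch25h the enzyme that makes 25-hydroxycholesterol. Socs2 and Socs1 encode suppressors of cytokine signalling, Pex5 the import receptor of peroxisomes and Odf1 a protein of the sperm tail. The nearest TSS of the other 8 belonged to Lpp, Zc3hc1, Fhad1, Rad54l, Gmpr, Smc5, Mafg and 1700016K19Rik. The nearest gene was not always the one that held the peak. The Socs1 element lay in an intron of Clec16a, that of Gmpr in Atxn1, that of Rad54l in Pomgnt1 and that of Smc5 in Mamdc2.

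The elements with 1 or 2 mismatches made up most of the group, and 7 of them show where the departures fell. Capitals again mark the DR1.
Pex16, DR1 at chr2:92375685-92375697, minus strand: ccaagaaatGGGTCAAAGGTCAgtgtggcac
Ccr9, DR1 at chr9:123768662-123768674, plus strand: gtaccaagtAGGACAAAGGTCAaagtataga
Rara, DR1 at chr11:98943612-98943624, minus strand: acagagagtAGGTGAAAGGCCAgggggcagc
Il6ra, DR1 at chr3:89917620-89917632, minus strand: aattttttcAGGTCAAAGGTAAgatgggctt
Lcp2, DR1 at chr11:34031665-34031677, plus strand: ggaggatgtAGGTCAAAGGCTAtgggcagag
Acsl4, DR1 at chrX:142490115-142490127, plus strand: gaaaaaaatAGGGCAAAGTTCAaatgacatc
Rad50, DR1 at chr11:53713705-53713717, plus strand: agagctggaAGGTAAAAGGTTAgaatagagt
Pex16, for a protein that builds the peroxisomal membrane, and the gut homing receptor gene Ccr9 each had 1 mismatch, in the 5′ hexamer. The element near Il6ra, the IL-6 receptor gene, had its 1 mismatch in the 3′ hexamer, and that near Lcp2, for the T cell adaptor SLP-76, had both of its mismatches there. The elements in Rara, for a retinoic acid receptor, near the acyl-CoA synthetase gene Acsl4 and near the repair gene Rad50 had 1 mismatch in each hexamer.

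Whole peaks show how much other sequence surrounds the element, and 12 are given below at their full 173 bp, in mm10, 5′ to 3′ on the strand of the element. They belong to genes of lipid handling and peroxisomes and to T cell genes that the results below turn on. Capitals mark the best DR1 and any AP-1 site (TGACTCA or TGAGTCA), to which FOS and JUN proteins bind.
Hif1a, chr12:73905095-73905267, plus strand: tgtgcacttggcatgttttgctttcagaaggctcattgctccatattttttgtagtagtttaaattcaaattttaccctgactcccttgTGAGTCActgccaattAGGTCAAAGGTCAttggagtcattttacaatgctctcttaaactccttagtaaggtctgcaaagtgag
Plin2, chr4:86671973-86672145, minus strand: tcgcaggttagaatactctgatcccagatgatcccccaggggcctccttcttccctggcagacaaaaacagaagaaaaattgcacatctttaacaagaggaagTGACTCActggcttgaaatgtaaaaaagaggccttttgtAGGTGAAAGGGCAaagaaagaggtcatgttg
Hilpda, chr6:29270986-29271158, plus strand: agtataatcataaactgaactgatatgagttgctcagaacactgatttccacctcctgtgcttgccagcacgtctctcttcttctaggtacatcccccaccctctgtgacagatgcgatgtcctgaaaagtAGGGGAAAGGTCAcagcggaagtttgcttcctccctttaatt
Fabp4, chr3:10212184-10212356, minus strand: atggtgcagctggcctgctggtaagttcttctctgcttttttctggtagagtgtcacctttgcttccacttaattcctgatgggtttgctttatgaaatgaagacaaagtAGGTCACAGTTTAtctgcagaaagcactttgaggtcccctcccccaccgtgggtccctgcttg
Pck1, chr2:173157484-173157656, plus strand: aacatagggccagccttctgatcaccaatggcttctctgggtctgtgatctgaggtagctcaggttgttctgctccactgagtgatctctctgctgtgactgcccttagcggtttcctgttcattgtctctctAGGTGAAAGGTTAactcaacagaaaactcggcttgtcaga
Acsl5, chr19:55260543-55260715, plus strand: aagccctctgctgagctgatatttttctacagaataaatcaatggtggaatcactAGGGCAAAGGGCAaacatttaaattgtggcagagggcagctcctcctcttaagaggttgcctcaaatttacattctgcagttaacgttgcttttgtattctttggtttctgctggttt
Hadh, chr3:131271317-131271489, plus strand: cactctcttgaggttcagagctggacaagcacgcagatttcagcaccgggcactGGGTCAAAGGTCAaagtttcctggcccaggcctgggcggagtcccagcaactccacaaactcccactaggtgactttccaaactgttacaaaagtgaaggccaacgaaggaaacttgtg
Pex16, chr2:92375614-92375786, minus strand: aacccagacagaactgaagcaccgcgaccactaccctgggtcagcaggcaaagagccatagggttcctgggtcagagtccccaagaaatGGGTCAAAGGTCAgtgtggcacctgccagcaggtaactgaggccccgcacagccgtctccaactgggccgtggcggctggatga
Ehhadh, chr16:21790474-21790646, plus strand: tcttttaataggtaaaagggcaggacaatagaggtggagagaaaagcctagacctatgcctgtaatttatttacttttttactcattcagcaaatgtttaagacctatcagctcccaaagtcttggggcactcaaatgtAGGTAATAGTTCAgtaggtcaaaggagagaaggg
Socs1, chr16:10754641-10754813, plus strand: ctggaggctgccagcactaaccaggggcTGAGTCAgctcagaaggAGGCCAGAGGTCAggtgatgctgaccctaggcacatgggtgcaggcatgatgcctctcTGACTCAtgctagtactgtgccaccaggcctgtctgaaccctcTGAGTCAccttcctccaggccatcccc
Il2ra, chr2:11641389-11641561, minus strand: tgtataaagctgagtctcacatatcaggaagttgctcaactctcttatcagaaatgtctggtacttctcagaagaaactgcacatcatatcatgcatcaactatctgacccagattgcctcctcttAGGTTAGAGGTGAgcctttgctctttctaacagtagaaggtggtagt
Ccr9, chr9:123768576-123768748, plus strand: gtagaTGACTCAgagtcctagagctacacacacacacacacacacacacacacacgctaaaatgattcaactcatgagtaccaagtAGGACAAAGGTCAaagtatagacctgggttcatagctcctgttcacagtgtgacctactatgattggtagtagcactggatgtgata
In the Hif1a peak the AP-1 site ended 9 bp before the DR1, and in the Plin2 peak 32 bp before it. The Socs1 peak held 3 AP-1 sites, 1 of them 10 bp before the DR1. In the Ccr9 peak the gap was 74 bp, and the other 8 printed peaks held no AP-1 site. The Ehhadh window held 3 DR1 matches, of which only the best is in capitals.

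The DR1 label was checked against sequence beside the same peaks. A DR1 match was present in the central 200 bp of 329 of 1608 distal peaks, or 20.5% (exact 95% binomial interval 18.5 to 22.5). The 200 bp windows 300 to 500 bp to either side of the same centres held one in 122 of 3216 cases, or 3.79% (3.16 to 4.51). The flanks of the 329 peaks themselves held one in 20 of 658 windows (3.04%). Flank windows were not cleared of other peaks. At a pair of DR1 peaks near Enc1, with centres 441 bp apart, a flank window of each held the element of the other. Of all 2537 peaks, 502 (19.8%) had a DR1, and the 41 among 192 promoter peaks (21.4%) and the 67 among 324 distal peaks in repeats (20.7%) were close to the distal share. Peaks more than 100 kb from a TSS gave 65 of 413 (15.7%, 12.4 to 19.6). No test was run on any comparison, since there is 1 library. All intervals are at 95%, cover counting error alone and are not adjusted for the number of features compared. The match limit fell inside a continuum. Among the 1608 distal peaks the best match had 0 mismatches in 16, 1 in 87 and 2 in 226, while just outside the limit 497 had 3. By distance, the farthest of the 329 peaks lay 99.5 kb from a TSS and the nearest DR1 peak left out lay at 100.1 kb.

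The elements in the peaks were closer to the consensus than the matches beside them. Flank windows, unlike peak centres, were not filtered on repeats. The part of repeats in this and the following differences from flank matches was not tested. Of the 329 elements, 26.4% had 1 mismatch, against 13.1% of the 122 flank matches, a difference of 13.3 percentage points (Newcombe 95% interval 4.91 to 20.3). Elements without mismatch made up 4.86% of the peaks' elements and 0.82% of the flank matches (difference 4.04 points, −0.07 to 7.01). The sequences were diverse: 324 elements whose sequence is reported took 218 forms, of which 163 occurred once. The most frequent were AGGCCAAAGGTCA and AGGTGAAAGGTCA with 8 peaks each, AGGTCAAAGGTCA and AGGTCAGAGGTCA with 7 each, and AGGGCAAAGGGCA with 6.

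Mismatches gathered at particular positions, counted from 1 at the 5′ end of the element with the spacer at position 7. Position 4 was the most variable, with a mismatch in 31.6% of the elements in peaks and 23.8% of flank matches, followed by position 5 with 20.4% and 13.1%. The intervals of both differences included 0. Position 6, beside the spacer, was the most constant, with a mismatch in 3.95% of the peaks' elements. The leading substitution at position 4 was T4G, in 49 elements, at position 5 C5G, in 42, and at position 1 A1G, in 37. In the 3′ hexamer it was G10T at position 10, in 45 elements, and T11G at position 11, in 34. Compared with the flanks, mismatches were rarer at position 3 (6.99% against 16.4%, difference −9.40 points, −17.3 to −2.98), position 11 (19.8% against 35.2%, −15.5 points, −25.1 to −6.32) and position 13 (9.42% against 18.9%, −9.43 points, −17.7 to −2.46).

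**Figure D1:**
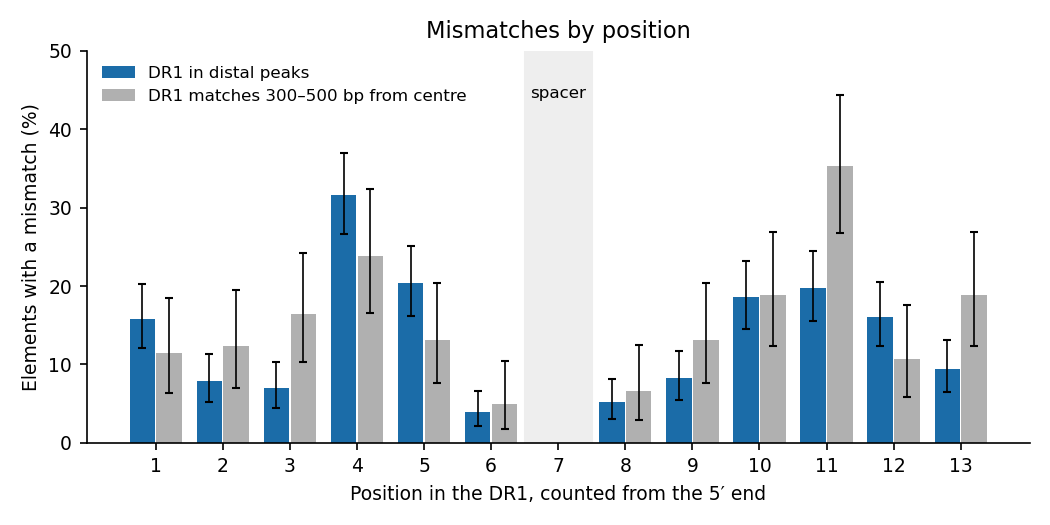
Share of elements with a mismatch (%) at each of the 12 fixed positions of the DR1, for the 329 distal peaks (blue) and the 122 matches 300 to 500 bp from distal peak centres (grey); bars are shares and lines exact 95% binomial intervals. Positions 4 and 5 vary most in the peaks, and positions 3, 11 and 13 carry fewer mismatches in the peaks than beside them.

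The 2 hexamers differed in how they compared with the flanks. The 3′ hexamer, the one known to hold the retinoid X receptor, was exact in 118 elements in peaks (35.9%) and in 21.3% of flank matches, a difference of 14.6 points (5.05 to 22.8). The 5′ hexamer was exact in 95 (28.9%) and in 34.4% (difference −5.55 points, −15.5 to 3.81). Within the peaks, 285 of 539 mismatches (52.9%, 48.6 to 57.2) lay in the 5′ hexamer. Among flank matches the share was 44.2% (37.7 to 51.0). An element could give 2 mismatches, so these 2 intervals do not measure the spread over elements. Of the 87 elements in peaks with 1 mismatch, 51 had it in the 5′ hexamer (58.6%, 47.6 to 69.1). The leading variants of the 5′ hexamer were AGGCCA and AGGGCA in 33 peaks each, AGGTGA in 31 and GGGTCA in 22. Those of the 3′ hexamer were AGTTCA in 35 and AGGGCA in 29. AGGACA was the 3′ hexamer of 18 flank matches (14.8%) and of 10 elements in peaks (3.04%). Its mismatch lies at position 11, where 43 flank matches and 65 elements in peaks had one. The part of this hexamer in the differences at position 11 and in exact 3′ hexamers was not tested.

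The spacer and the 4 bases upstream differed from those of the flank matches, although the search did not ask for them. The spacer was A in 175 elements in peaks (53.2%) and in 23.0% of flank matches, a difference of 30.2 points (20.4 to 38.7). G at the spacer went the other way, with 29.5% in peaks and 45.9% beside them (−16.4 points, −26.4 to −6.41). The base directly upstream was T in 46.5% against 23.0% (23.6 points, 13.8 to 32.1). The base 3 before the repeat was A or T in 80.5% against 58.2% (22.4 points, 12.8 to 32.0), and the base 4 before it was A in 49.2% against 26.2% (23.0 points, 13.01 to 31.8). The second base upstream was most often G in both, with 37.1% in peaks and 40.2% in flank matches, and A was rarer there in peaks, with 15.2% against 27.9% (−12.7 points, −21.9 to −4.31). The combination of A, then A or T, then any base, then T before the repeat stood in 68 elements in peaks (20.7%) and in 4.10% of flank matches (16.6 points, 10.04 to 21.8). The Fabp4 (aagt), Tiparp (aagt) and Pex16 (aaat) elements printed above have it, and so does the Hif1a element (aatt). At the fifth and sixth bases upstream the intervals of all 8 differences included 0. Of the 3 bases downstream only C at the first differed beyond counting error, with 27.7% against 17.2% (10.4 points, 1.52 to 18.1).

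**Figure D2:**
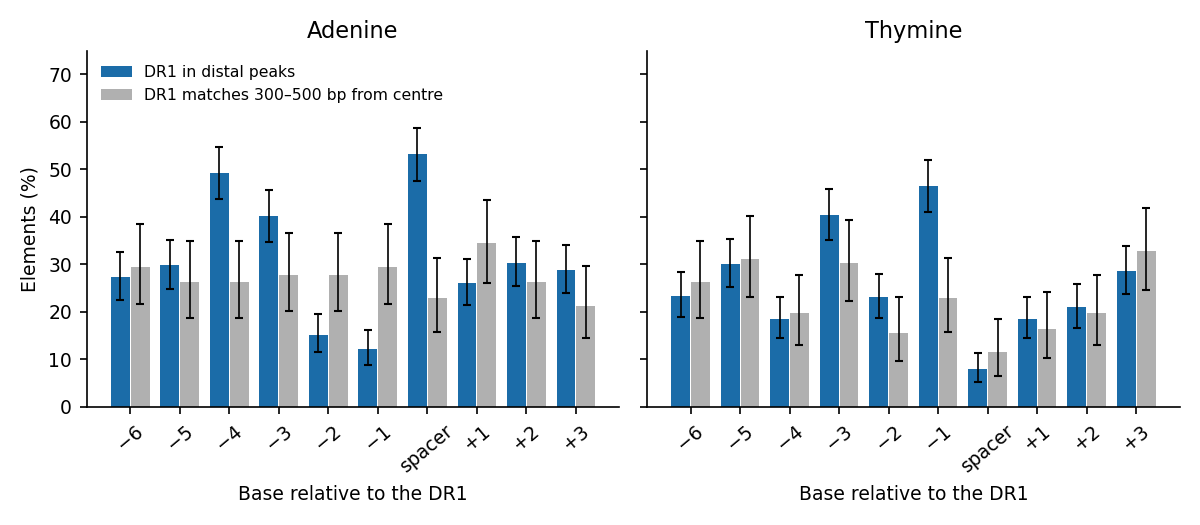
Share of elements (%) with adenine (left) or thymine (right) at the spacer, at the 6 bases before the DR1 (−6 to −1) and at the 3 after it (+1 to +3), for the 329 distal peaks (blue) and the 122 flank matches (grey) with exact 95% binomial intervals. Adenine stands out at the spacer and 4 bases upstream, and thymine directly upstream.

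The base directly upstream was also counted in subsets of the elements, which were not set against flank matches of their own. T stood directly upstream in 52.9% of the 87 elements with 1 mismatch (41.9 to 63.7) and in 45.1% of the 226 with 2 (38.5 to 51.9). The 16 elements without mismatch gave 31.2% (11.02 to 58.7), an interval that holds both the share in all 329 elements and the 23.0% of the flank matches. Introns gave 49.4% and intergenic sequence 43.9%, with intervals that overlap. Elements within 50 bp of the centre had T in 48.9% (42.2 to 55.6) and those farther out in 41.3% (31.8 to 51.4). DR1 elements of promoter peaks had T in 58.5% of 41 (42.1 to 73.7) and a spacer A in 65.9% (49.4 to 79.9). DR1 elements centred in repeats had T in 35.8% of 67 (24.5 to 48.5) and a spacer A in 38.8% (27.1 to 51.5). DR1 elements of peaks more than 100 kb from a TSS had T in 52.3% of 65 (39.5 to 64.9). They had a spacer A in 56.9% (44.04 to 69.2). The intervals of the distal elements were 41.0 to 52.1 for T and 47.6 to 58.7 for spacer A. The promoter, repeat and beyond 100 kb shares lay outside them, except for spacer A beyond 100 kb. The intervals of all these shares overlap those of the distal elements, which does not show that the shares are alike. No interval of these differences was computed.

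The whole element had to lie in the 200 bp window, which limits its distance from the peak centre. The distance from centre to spacer reached 93 bp and had a median of 32 bp (exact 95% interval of the median 25 to 37), with quartiles of 11 and 55 bp. It was at most 50 bp in 225 peaks (68.4%) and at most 20 bp in 123 (37.4%). Elements with 0, 1 and 2 mismatches had medians of 41.5, 23 and 34 bp, and their intervals (20 to 61, 16 to 37 and 26 to 41 bp) overlapped. In 23 peaks (6.99%) the window held more than 1 DR1 match. The element pointed along the strand of the nearest gene in 159 peaks (48.3%, 42.8 to 53.9), so no orientation stood out.

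**Figure D3:**
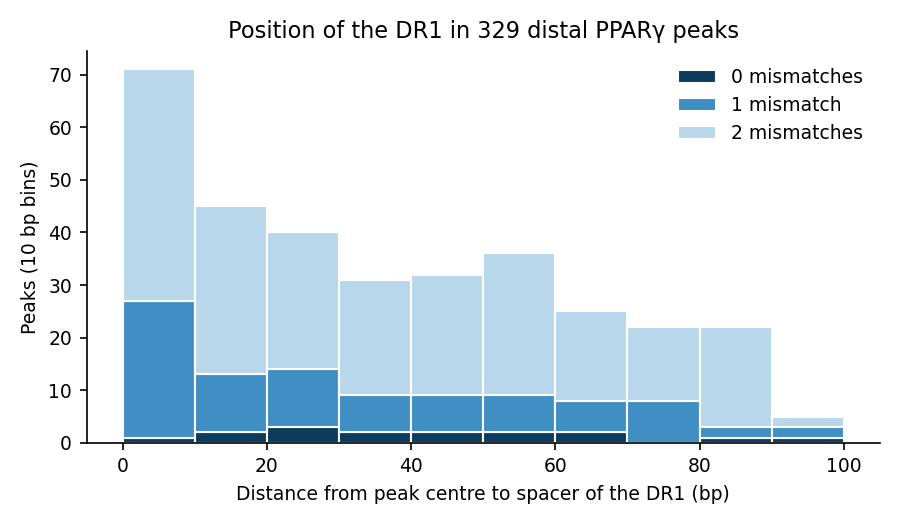
Number of the 329 distal DR1 peaks by distance (bp) from the peak centre to the spacer of the best DR1, in bins of 10 bp, with shades for 0, 1 and 2 mismatches. Counts are highest in the bin at the centre. The outermost bin is filled in part, to 93 bp, since the whole element must lie in the 200 bp window.

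The share of distal peaks with a DR1, and that with an AP-1 site, differed along the deposited file. The rows do not run along the chromosomes, and what orders them is not given in the sources used here. DR1 peaks were 56 of the 179 distal peaks in rows 1 to 253 (31.3%, 24.6 to 38.6) and 24 of the 134 in rows 2284 to 2537 (17.9%, 11.8 to 25.5). An AP-1 site stood in 29.1% (22.5 to 36.3) and 14.9% (9.36 to 22.1) of the same distal peaks, with and without DR1 counted together. Of the 329 peaks, 199 (60.5%) stood in rows 1 to 1268, against 51.1% of the distal peaks without DR1 (difference 9.43 points, 3.40 to 15.2). T directly upstream was found in 52.8% of the elements in rows 1 to 1268 (45.6 to 59.9) and in 36.9% of those in later rows (28.6 to 45.8). Each share lay outside the interval of the other, and no interval of this difference was computed. The spacer A share was 54.8% and 50.8%. The median row was 1012.5 for elements without mismatch, 1199 for those with 1 and 932 for those with 2. Elements with 0 or 1 mismatch did not share the higher DR1 share of the first rows. They stood in 12 of the 179 distal peaks in rows 1 to 253 (6.70%, 3.51 to 11.4). In rows 2284 to 2537 they stood in 12 of the 134 (8.96%, 4.71 to 15.1).

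**Figure D4:**
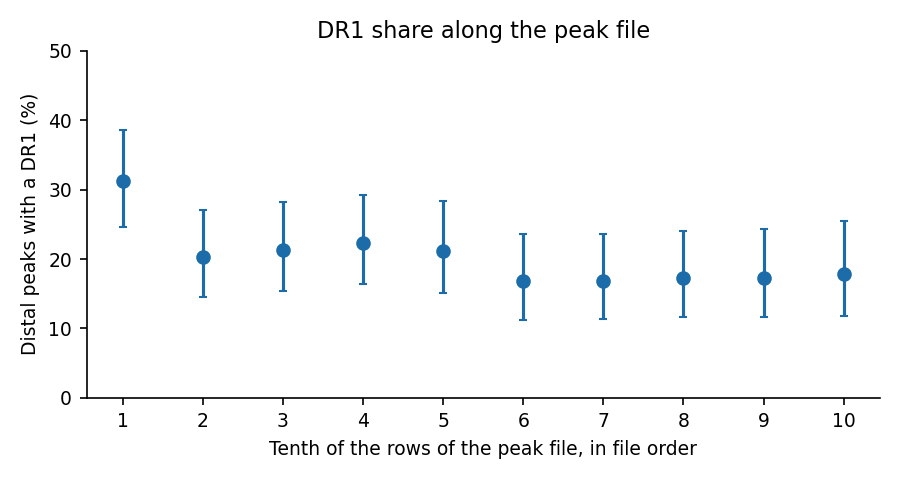
Share of distal peaks with a DR1 (%) in 10 consecutive blocks of rows of the peak file, in file order, with exact 95% binomial intervals. The first block (rows 1 to 253) reaches 31.3%, and the other 9 lie between 16.8% and 22.3%.

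Sites of other factors were counted in the same 200 bp as exact matches on either strand, for 16 motifs. AP-1 was found in 48 of the 329 peaks (14.6%, 10.96 to 18.9) and in 255 of the 1279 distal peaks without DR1 (19.9%, 17.8 to 22.2), a difference of −5.35 points (−9.45 to −0.63). Over all 2537 peaks it was 17.9%. The interval of this difference included 0 under 8 of 11 other settings, with −0.42 points when at most 1 mismatch was allowed in the DR1 and −3.95 points with the comprehensive gene annotation. The TCF word CTTTGA was the other motif whose interval left out 0, with 31.3% against 22.4% (8.87 points, 3.54 to 14.5). Its reverse complement TCAAAG is part of a DR1 whose spacer is A. Outside the DR1 it was present in 15.2% of the 329 peaks, a difference of −7.24 points (−11.4 to −2.43) from the peaks without DR1, where no sequence was set aside.

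For the other 14 motifs the interval of the difference included 0. GATA sites (AGATAA or TGATAA), bound by the TH2 regulator GATA3 and its relatives, were found in 26.4% of DR1 peaks and 27.4% of those without (95% interval of the difference −6.13 to 4.55 points). ETS sites (CCGGAA or AGGAAG) were found in 25.5% and 28.4%, RUNX sites (TGTGGT) in 14.9% and 19.0%, and NFAT sites (GGAAAA) in 16.4% and 19.2%. STAT sites (TTCNNNGAA) gave 8.21% and 9.46%, and the wider STAT6-type site (TTC and GAA with 4 bases between) 8.81% and 7.11%. The MAF half-site (TGCTGA) gave 20.1% and 15.9% (4.19 points, −0.30 to 9.22). The remaining words were GAAA repeated after 2 bases for IRF, GGTGTGA for T-box, GGGCGG or GGGTGG for KLF/SP, CAGCTG for E-box, TTGCNNAA for CEBP, TGACGTCA for CREB/ATF and GGGA and CC with 4 bases between for NF-kB. Their differences ran from −1.03 points for IRF to 0.98 points for NF-kB, and CREB/ATF was found in 0 of the 329 peaks (exact upper limit 1.11%). In 36 of the 329 peaks none of the 16 motifs was found.

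**Figure D5:**
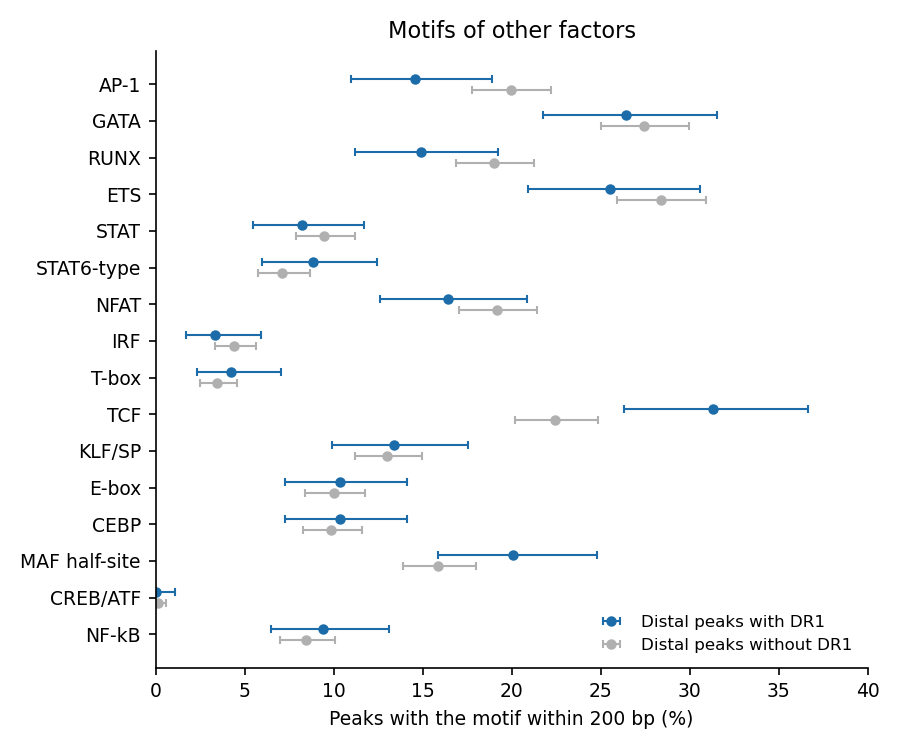
Share of peaks (%) with each of 16 motifs within the central 200 bp, for the 329 distal peaks with DR1 (blue) and the 1279 without (grey); points are shares and lines exact 95% binomial intervals. AP-1 lies lower and TCF higher in the DR1 peaks, and the TCF word can lie inside the DR1 itself.

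Some other spacings of the same hexamer, scanned with up to 2 mismatches, were more frequent in the DR1 peaks, but many of these repeats shared a hexamer with the DR1. A repeat with 6 bases between the copies was present in 33 peaks (10.03%), against 2.89% of peaks without DR1 (7.14 points, 4.14 to 10.9), and in 25 of the 33 it used a hexamer of the DR1. A spacing of 2 bases was present in 31 (9.42%) against 4.30% (5.12 points, 2.14 to 8.89), and in 20 of the 31 it shared a hexamer. The intervals also lay above 0 for spacings of 0 bases (5.47% against 2.97%) and 4 bases (4.56% against 2.27%), and included 0 for 3 and 5. The windows compared are therefore not alike for these repeats, since each of the 329 holds a hexamer by choice.

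The 48 peaks with both DR1 and AP-1 kept no fixed spacing. The gap between the sites had a median of 42.5 bp (29 to 64) and ran up to 115 bp. It was within 20 bp in 15 peaks, and in 3 the sites overlapped. AP-1 lay on the 5′ side of the DR1 in 28 of 48 (58.3%, 43.2 to 72.4). The DR1 was nearer to the peak centre in 25 peaks and the AP-1 site in 22. The median offset of the AP-1 site from the centre was 37.5 bp (21 to 59) in these peaks and 44 bp (39 to 49) in distal peaks without DR1, with overlapping intervals. The DR1 in the 48 had T directly upstream in 35.4% (22.2 to 50.5), against 48.4% (42.4 to 54.4) in the other 281.

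Most of the 329 peaks lay in introns, though less often than distal peaks without DR1. Introns held 180 (54.7%) and intergenic sequence 132 (40.1%), against 62.4% and 33.3% of the peaks without DR1. The intron difference was −7.68 points (−13.7 to −1.74), and its interval included 0 under 5 of 11 other settings, among them the comprehensive annotation (−5.08 points). For the 16 exact elements alone the difference was 1.70 points (−22.3 to 20.9). Exons held 17 (5.17%), of which 4 were coding, 8 untranslated and 5 in noncoding transcripts. The coding ones were in Gzf1, Tmem64, Unc119 and Zfp446, named here because their number is small. Distance to the closest protein-coding TSS had a median of 16.5 kb (13.1 to 19.2), against 19.3 kb (17.5 to 20.9). Within 10 kb of a TSS lay 127 peaks (38.6%), against 32.7% (5.92 points, 0.19 to 11.8). Upstream of the nearest TSS lay 44.1% of the DR1 peaks, against 41.1% (2.95 points, −2.98 to 8.97). The 200 bp windows had a median GC content of 45.5% (45.0 to 46.0) with DR1 and 43.0% (42.5 to 43.5) without, and the part of base composition in the motif shares was not tested.

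DR1 peaks were found on 20 chromosomes. On the autosomes they made up between 11.1% of the distal peaks (12 of 108 on chromosome 1) and 31.0% (18 of 58 on chromosome 15), and on the X chromosome 6 of 13. Another peak lay within 10 kb of 61 DR1 peaks (18.5%), against 18.4% of the peaks without DR1. Only 9 of the 329 had another DR1 peak of the group within 10 kb. Near Rps6ka5, the gene of the kinase MSK1, 3 stood in a row, at chr12:100736093-100736265, chr12:100738092-100738264 and chr12:100739195-100739367, with gaps of 1999 and 1103 bp between centres. Near Tnfaip3, for the NF-κB inhibitor A20, the centres of a pair were 1635 bp apart, and near the zinc finger gene Zfp3 2035 bp apart. A pair near Enc1, named after its values were seen, was 441 bp apart.

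By nearest protein-coding TSS, the 329 peaks fell to 311 of 21924 genes, and 1.42% is the share against which the gene lists are read. Distal peaks without DR1 fell to 1085 genes, or 4.95%. Of the 311, 95 also had a distal peak without DR1 and 195 had no other peak. The gene had a single DR1 peak in 294 cases, 2 in 16 and 3 in 1. Pairs stood at Hadh, Fnip1, Hilpda, Ranbp9, Plin2, Caprin1, Ttc39b, Enthd1, March10, Zfp3, Rbpj, Arid5b, Socs1, Phlda1, Tnfaip3 and Enc1. In 7 of 18 gene lists the lower bound of the share with a DR1 peak lay above 1.42%. These lists are not independent, since 31 genes stood in more than 1 list and their peaks count again. In 18 of 18 the share itself with a distal peak without DR1 lay above 4.95%, in neuron markers with 1 of 20 (5.0%). A share is a looser measure than a lower bound, so the counts of lists cannot be compared. Since genes entered the lists with earlier results of these data known, this is a description. A peak was assigned by distance alone, and no expression or contact data tie it to that gene.

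Genes of lipid uptake, storage and breakdown had a DR1 peak at 6 of 45 (13.3%, 5.05 to 26.8), and a distal peak without DR1 at 7 of 45 (15.6%). Plin2, for a coat protein of lipid droplets, had 2 upstream at 2.00 and 20.2 kb, and the farther one carried AGGGCAAAGTTCA 3 bp from the peak centre. Hilpda, for an inhibitor of triglyceride lipase, had 2 upstream at 1.42 and 25.6 kb. The Fabp4 element, 3.69 kb upstream of this fatty acid binding protein gene, had its mismatches in the 3′ hexamer alone. Introns held the peak of Pck1, a gene of glyceroneogenesis, 4.52 kb from the TSS, and that of Acsl5, an acyl-CoA synthetase gene, 7.26 kb from the TSS. The Acsl4 peak was the farthest of all 329, at 99.5 kb. All 8 elements of the list had 2 mismatches, the most allowed, as did 68.7% of all 329 elements. None of the 8 remained when 1 was allowed.

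Genes of peroxisomes had a DR1 peak at 4 of 34 (11.8%, 3.30 to 27.5), with distal peaks without DR1 at 3 of 34. The Pex16 peak lay in its intron 394 bp from the TSS, with the element 9 bp from the centre. The Ehhadh peak, 2.75 kb upstream of the gene of the bifunctional enzyme of peroxisomal β-oxidation, held 3 DR1 matches. Cat, for catalase, and Pex5 had theirs 9.02 and 9.07 kb upstream. These 4 elements ranged over 0, 1 and 2 mismatches, and are too few to set against those of the lipid list. Genes of mitochondrial fatty acid oxidation had a DR1 peak at 2 of 35 (5.71%, 0.70 to 19.2), with distal peaks without DR1 at 5 of 35 (14.3%). A peak of any kind, in promoters and repeats too, stood at 15 of the 35. The 2 genes with a DR1 peak were Hadh, for a hydroxyacyl-CoA dehydrogenase, and Crat, for carnitine acetyltransferase. Hadh had a peak in an intron 698 bp from the TSS and another 39.4 kb downstream of it. Crat had its peak in an intron 5.84 kb from the TSS. Cpt1a, the rate-limiting gene of import, and Pdk4 had distal peaks but no DR1 in them.

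Cholesterol genes had a DR1 peak at 2 of 26: Scarb1, for the receptor of high-density lipoprotein, 7.19 kb upstream, and the exporter gene Abca1, 41.0 kb upstream. Nuclear receptors and their cofactors had one at 2 of 37, in Rara at 3.95 kb and 27.4 kb downstream of the TSS of Hnf4a, itself a DR1-binding receptor. Pparg and Rxra, the genes of both partners on the DR1, had no distal peak of either kind.

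T cell receptor signalling and costimulation genes had a DR1 peak at 6 of 46 (13.04%, 4.94 to 26.3), and a distal peak without DR1 at 13 of 46 (28.3%). All of them lay 15.2 kb or more from the TSS. Lcp2 had its peak at that distance, and the signalling genes Rasgrp1 and Prkcq had theirs at 28.6 and 29.0 kb, all 3 upstream. Introns held those of the kinase gene Itpkb at 73.9 kb, the ubiquitin ligase gene Cblb at 94.1 kb and the transcription factor gene Nfatc2 at 98.4 kb. Inhibitors of cytokine and inflammatory signalling had one at 4 of 42 (9.52%, 2.66 to 22.6), with 12 of 42 for distal peaks without DR1. Socs1 had 2, at 30.8 and 83.6 kb, the farther an exact element. Socs2 had an exact element 25.7 kb upstream. Tnfaip3 had its pair at 60.9 and 62.5 kb downstream, each with 1 mismatch, and the mRNA decay gene Zfp36l1 had 1 at 33.8 kb. These elements included 2 of the 16 exact ones, and the 6 of the receptor signalling list had 1 or 2 mismatches. Exact elements were 4.86% of all 329, so lists this small cannot be told apart by them.

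Among helper subset lists, TH2 genes had a DR1 peak at 4 of 39 (10.3%, 2.87 to 24.2), and a distal peak without DR1 at 10 of 39. They were Il2ra, for a chain of the IL-2 receptor, 1.33 kb upstream, Rara, Plin2 and Rad50. Rara and Plin2 were also counted in lists above, and Il2ra in the regulatory T cell list. The Rad50 peak stood 6.46 kb from the TSS of Rad50 and 7.02 kb from that of Il5, and had 1 mismatch in each hexamer. TH17 genes had one at 4 of 24 (16.7%, 4.74 to 37.4): Hif1a at 2.72 kb, Il6ra at 4.50 kb, the cytokine gene Il17a at 9.66 kb and Runx1, in an intron 62.5 kb from the TSS. The Hif1a element was the only exact one on these lists. Regulatory T cell genes had one at 2 of 27, Il2ra and the coreceptor gene Nrp1, 7.73 kb upstream. TH1 genes had one at 0 of 30 (exact upper limit 11.6%) and a distal peak without DR1 at 5 of 30. Lists of this size cannot order the subsets, since the intervals overlap. Gata3, Il4, Il5 and Il13 had no distal peak assigned, and the IL-33 receptor gene Il1rl1, Cd28 and Angptl4 had distal peaks without a DR1.

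Chemokine receptor and migration genes had a DR1 peak at 2 of 32, Ccr9 and Ccr1. The Ccr9 peak, row 3 of the file, lay 1.43 kb from the TSS in an exon of a noncoding transcript, with the element 6 bp from the centre. Hypoxia and glycolysis genes had one at 2 of 36, Hif1a and the hexokinase gene Hk2, 62.1 kb upstream. Of the lists for other cell types, B cell, macrophage and neuron markers had 0 of 15, 0 of 22 and 0 of 20. The exact upper limits were 21.8%, 15.4% and 16.8%, all above the 1.42% of all genes, so lists this small cannot show absence. Distal peaks without DR1 stood at 2, 3 and 1 of these genes. Mast cell markers had a DR1 peak at 1 of 14, in an intron of the histamine synthesis gene Hdc. Adipocyte markers had one at 2 of 16, which were Fabp4 and Pck1 of the lipid list.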

How the data were processed

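One peak list, from 1 ChIP library set against 1 input library, was analysed. The submitters' processing notes name Bowtie2 for alignment to mm10 and HOMER for peak calling, with versions not given in the sources used here. The authors, per the file headers, kept at most 1 tag per position and called peaks of 172 bp at least 344 bp apart. A false discovery rate of 0.001 set a limit of 8 tags, and a peak needed 4 times the tags of both the input and the 10000 bp around it, at a Poisson p-value of 0.0001. The deposited score is 1 in every row, so peaks carry no strength and rank by nothing here. Read length is given as 100 bp and as 50 bp in different places; no value depends on it.

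Coordinates are printed counting from 1. Genes came from the GENCODE vM21 basic annotation, sequence and soft masking from the GRCm38.p6 RefSeq genome, the assembly that mm10 names. Peaks were sorted in the order beyond 100 kb, promoter, repeat and distal. The best DR1 was the match with the fewest mismatches, then the one nearest to the centre. Shares have exact Clopper-Pearson intervals, differences Newcombe intervals and medians order-statistic intervals. Flank windows were filtered neither on repeats nor on other peaks. Sequences of the 5 DR1 peaks on chromosome 18 are not reported here. Gene lists held 543 symbols, of which 540 matched the annotation. The members and lists were chosen with earlier results of these data known. Named are up to 6 genes per list, up to 15 genes with the most DR1 peaks, the nearest genes of exact elements and a fixed set; other names are said to be chosen afterwards. The scan and the intervals were tested on simulated data. Alternatives covered mismatches, window, distance, promoter width, annotation, masking, rows of the file and gene assignment. Python 3.11.15 was used with numpy 2.4.6, scipy 1.17.1, pysam 0.24.0 and matplotlib 3.10.9.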

Additional observations from a re-analysis of the deposited data

How the results depend on the processing

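Each of 12 results was recomputed under up to 13 other settings. The group held 103 peaks with at most 1 mismatch, 16 with 0 mismatches, 203 with a window of 100 bp, 199 in rows 1 to 1268 and 130 in later rows, and the genes were 101, 16, 201, 190 and 126 in the same settings. Counting every gene with a TSS within 100 kb gave 1044. Elements with 0 mismatches had an intron share of 62.5%, a spacer A share of 43.8% and T directly upstream in 31.2%, from 16 elements. T directly upstream was 52.8% in rows 1 to 1268 and 36.9% in later rows. The median distance was 19.5 kb with at most 1 mismatch, 12.3 kb when peaks had to lie within 50 kb and 11.7 kb with the comprehensive annotation, chosen after seeing the data, which adds start sites. The share within 50 bp of the centre was 100% in a window of 100 bp, which allows no other value, and 54.3% in one of 400 bp. The AP-1 share was 7.39% and 24.7% in these windows. Fatty acid oxidation genes numbered 1 with at most 1 mismatch, in the 100 bp window, in rows 1 to 1268 and in later rows, 0 with 0 mismatches and 4 by every TSS within 100 kb. Lipid genes numbered 0 with at most 1 and with 0 mismatches and 1 in later rows. The other settings of both differences below were added after seeing the data. The AP-1 difference between DR1 peaks and those without had an interval that included 0 with at most 1 mismatch (−0.42 points), 0 mismatches (−6.41), windows of 100 bp (−3.22) and 400 bp (−3.50), 50 kb (−3.77), rows 1 to 1268 (−6.43), later rows (−4.94) and the comprehensive annotation (−3.95). The intron difference did so with at most 1 mismatch (−4.82), a window of 100 bp (−5.90), later rows (−6.18) and the comprehensive annotation (−5.08), and changed sign with 0 mismatches (1.70). The causes were not tested, and the smaller groups give wider intervals. The other 93 values moved less: counts stayed within 1.5 times the reported count, shares and medians inside the reported 95% interval, and differences kept their sign and an interval clear of 0. No paired analysis was possible because there is 1 library of each kind and no test, and no replicate could be left out.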
